A study of Anguilla japonica with 6 samples.

Results

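Kinesins, cytoplasmic dynein, dynactin, tubulins, stathmin and the enzymes and partners that regulate microtubules were compared between the immature ovary and testis of the Japanese eel (Anguilla japonica). Members were the transcripts whose best vertebrate SwissProt protein carried a gene symbol beginning with kif, klc, tuba, tubb, tubg, stmn, ttll, mapre, katn, dync or dctn. They made up 64 gene symbols of 13194 units in all, a unit being a symbol with its transcripts summed or a single transcript without a vertebrate symbol. The 64 symbols held 297 transcripts, 172 from the long reads of ovary and 125 from those of testis, and all 64 passed the filter on low counts. One further transcript with a matching name had a non-vertebrate hit and was left out.

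The ovary group held 3 females and the testis group 3 males, 1 library per fish. All were farm-raised at the silver stage, the stage before the spawning migration, and their gonads were differentiated, immature and not hormone-treated. The labels give no age and no treatment. Levels are in FPKM, the deposited value per transcript scaled for transcript length and library size, and were summed per symbol. Errors of levels are SD over 3 fish. Log2 fold changes are testis minus ovary, with their SE, from edgeR's quasi-likelihood test on the estimated counts, and a unit was called at a Benjamini-Hochberg adjusted p under 0.05 over all 12367 tested units. Summed FPKM was higher in testis replicates 2 and 3, at 1218425 and 1312673, than in the other libraries, at 721650 to 821037. FPKM ratios also differ from the fitted fold changes. In every member the fitted log2 fold change was below the log2 of the FPKM ratio, by an amount that varied. For the members, FPKM levels thus lean further towards testis than the fits do. Among other genes the direction varied. The library scaling factors of the fit were 0.87 to 0.97 in the ovaries and 1.05 to 1.18 in the testes. The causes of the difference were not tested.

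Library totals ran from 11913969 to 18508307 estimated counts. The 8 oocyte markers summed to between 137773 and 157416 FPKM in the ovaries, and the 6 meiotic markers to between 475 and 1050 FPKM in the testes against 10.5 to 16.9 FPKM in the ovaries. All 8 measured markers of spermatids and flagella were present in the testes, with 7 called higher there, against 24.8% of all tested units. The listed rsph1 and odf3 were absent from the table. The ccdc40 values overlapped, at 28.9 FPKM in ovary and 48.9 FPKM in testis, and the spag6 call was lost in each leave-out (adjusted p = 0.059 to 0.13). Whether spermatids were present was not tested. Testis replicate 1 stood apart, with Spearman correlations of 0.785 and 0.773 to the other testes, which reached 0.917 with each other, so results that rest on it are also given without it. Oocyte markers summed to 610, 22983 and 4497 FPKM in testis replicates 1, 2 and 3. These are whole gonads, in which fewer cells of a type and less RNA per cell cannot be told apart.

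Microtubules are hollow polymers of alpha and beta tubulin dimers that are nucleated by gamma tubulin and its ring complex. Kinesins and cytoplasmic dynein, the latter with dynactin, walk along them with cargo, and several kinesins build the spindle or divide the cell. In germ cells, microtubules form the meiotic spindle, position organelles in the oocyte, and build the manchette and flagellar axoneme of the spermatid. Stathmin binds free tubulin dimers and promotes depolymerization, end-binding proteins track growing ends, katanins sever the polymer, and tubulin tyrosine ligase-like enzymes add glutamate or glycine chains to it.

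Of the 64 members, 19 were called, 11 higher in testis and 8 higher in ovary. Among all tested units 45.9% were called, 24.8% higher in testis and 21.1% higher in ovary. With all libraries the members' share was therefore below that of the whole table. Without testis replicate 1 it was above, with 38 of the 64 members called where 49% of all tested units were. The FPKM of the tissues did not overlap in 27 members, 15 with testis above ovary and 12 with ovary above testis, where 59.2% of all tested units did not overlap, 35.1% with testis above and 24.1% with ovary above. The median log2 fold change was -0.10 over the members and 0.11 over all tested units. Of the called members, stathmin, 1 alpha tubulin and the dynein 2 heavy chain had the largest differences towards testis. Those called higher in ovary were 4 kinesins, a beta tubulin, 2 katanin-related genes and a tubulin ligase-like enzyme. The kinesin kif26a had the lowest log2 fold change of the members, but it was not called (-3.72, adjusted p = 0.094), nor was kif16b (-2.73, adjusted p = 0.067). In all 17 settings of the analysis, 13 of the members were called in the same direction. The share of all tested units called in every setting is not given here.

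**Figure D1:**
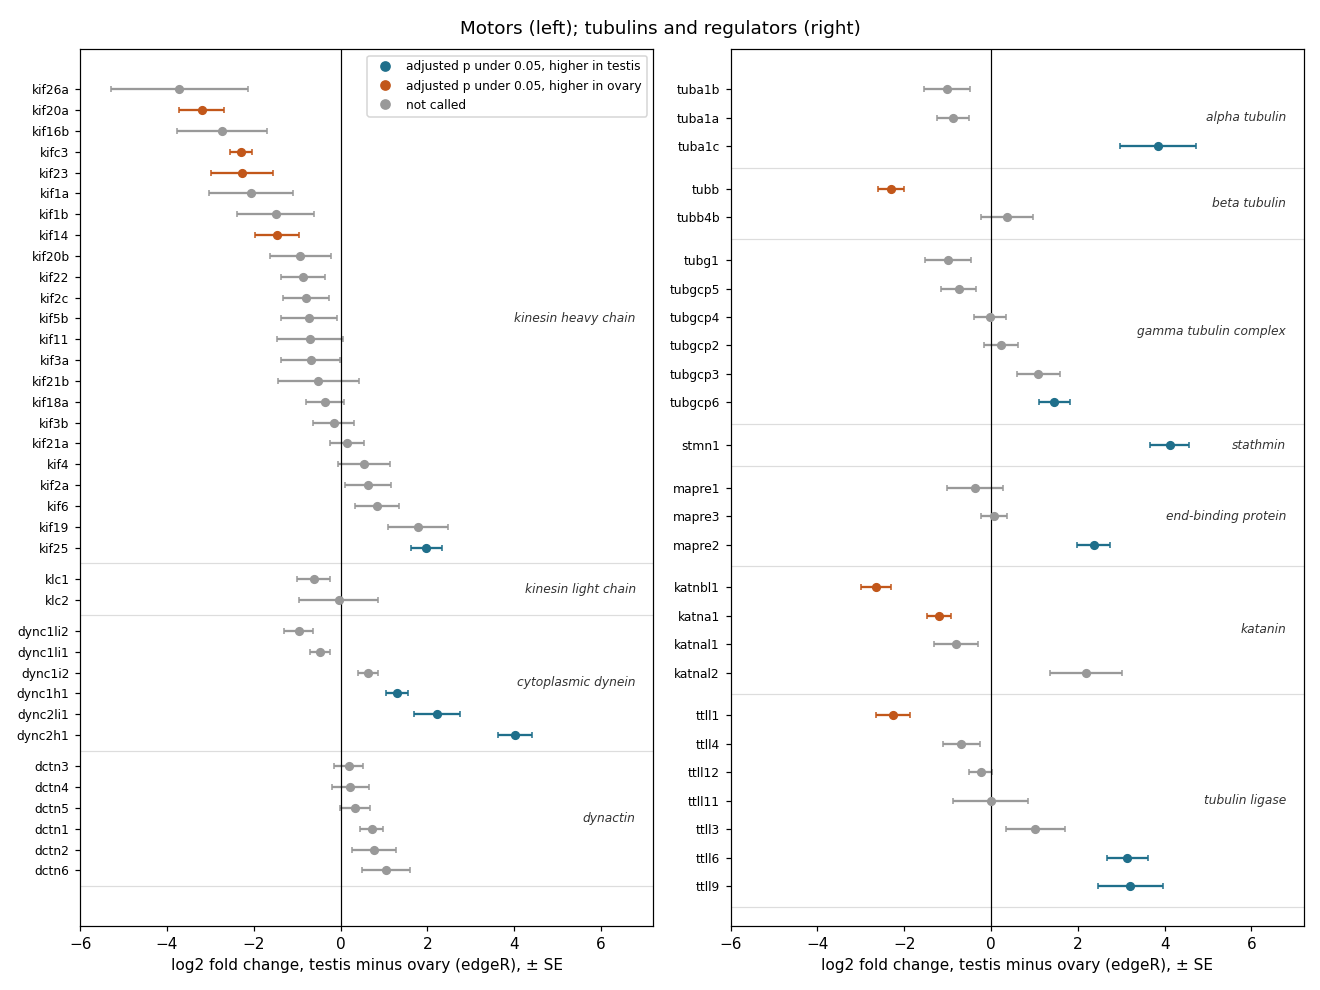
Log2 fold change (testis minus ovary, edgeR) with its SE for the members, grouped by role, motors on the left and tubulins and regulators on the right. Blue points are called higher in testis, orange points higher in ovary and grey points not called. Of 23 kinesin heavy chains 4 were called higher in ovary and 1 higher in testis, against 21.1% and 24.8% of all tested units. The highest value of the members was that of stmn1, 4.11.

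The members with the largest difference towards testis included stmn1, which encodes stathmin, the only stathmin symbol found. It stood at 172, 200 and 292 FPKM in the ovaries and at 5154, 4689 and 5180 FPKM in the testes. The 3 testes lay close together, and the lowest was far above the highest ovary. The log2 fold change was 4.11 (SE 0.44, adjusted p = 0.0013) and it remained called in each of the 17 settings. By mean FPKM stmn1 ranked 393rd of 13194 units in ovary and 67th in testis, the highest of the members in testis. Of its 8 transcripts, 6 were called, all of them higher in testis, where 6.26% of all tested transcripts were called higher in testis. These transcript calls did not hold in all settings. No transcript in the table was called with the replicate block, or without any 1 library other than testis replicate 1. The main ovarian transcript, 1307 bases long and built from ovary long reads, averaged 173 FPKM in ovary and 2422 FPKM in testis. The other 7, built from testis long reads, averaged between 0.313 and 20.4 FPKM in ovary and between 107 and 741 FPKM in testis.

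Among the alpha tubulins with a symbol, tuba1c was called higher in testis and tuba1a and tuba1b were not called. The tuba1c level was 128, 96.7 and 154 FPKM in the ovaries and 5133, 800 and 1070 FPKM in the testes. Testis replicate 1 was several times higher than the other testes, but no testis overlapped an ovary. The log2 fold change was 3.85 (SE 0.87, adjusted p = 0.012). It was 2.42 without testis replicate 1 (adjusted p = 0.0030), and the call was lost without ovary replicate 2 (adjusted p = 0.051). The tuba1a level was 184 ± 38.8 FPKM in ovary and 117 ± 44.9 FPKM in testis (log2 fold change -0.88, adjusted p = 0.090). The tuba1b level was 51.9 ± 9.33 FPKM in ovary and 30.2 ± 17.2 FPKM in testis (-1.01, adjusted p = 0.16).

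Most ovarian alpha tubulin lay outside these symbols, in transcripts whose best SwissProt tubulin has no gene symbol or comes from the fruit fly. These groups were picked after their values were seen. Their fold changes and adjusted p-values are from a separate edgeR fit with SwissProt entries grouped, over 11971 tested units. The 16 transcripts that matched a newt (Notophthalmus viridescens) alpha tubulin summed to 3355, 3670 and 4885 FPKM in the ovaries and to 0.89, 234 and 17.2 FPKM in the testes. All ovaries were far above all testes (log2 fold change -5.94, SE 1.73, adjusted p = 0.027). That call was lost without ovary replicate 1, 2 or 3 or testis replicate 3 (adjusted p = 0.061, 0.055, 0.065 and 0.082). The 5 transcripts matched to an electric ray (Torpedo marmorata) alpha tubulin showed the same order, with 1182 ± 215 FPKM in ovary and 13.1 ± 19.2 FPKM in testis (-6.74, SE 1.42, adjusted p = 0.0081). Of all transcripts in the table, 18 had an alpha-8 tubulin as their best hit in the non-redundant protein set, and they summed to 3869, 4821 and 5193 FPKM in the ovaries and 0.52, 258 and 12.7 FPKM in the testes. All 18 were without a symbol. They are no further group, being 14 of the newt-matched and 4 of the electric ray-matched transcripts. In the testes these values followed the order of the summed oocyte markers, lowest in replicate 1 and highest in replicate 2; the part of oocytes in them was not tested.

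Summed over symbols and these groups, the alpha tubulin level was 5578, 6245 and 7908 FPKM in the ovaries and 5577, 1350 and 1374 FPKM in the testes. Its make-up differed. The tuba1c share was 1.93% ± 0.375 in ovary and 76.4% ± 16.4 in testis, while the newt-matched share was 60.2% ± 1.5 in ovary and 6.19% ± 9.65 in testis. In testis replicate 1 tuba1c alone held 92.0% of alpha tubulin FPKM. A pair of transcripts matched a rainbow trout alpha tubulin that is named testis-specific in that species, but their summed level was 130 ± 74.0 FPKM in ovary and 115 ± 168 FPKM in testis (log2 fold change -1.04, adjusted p = 0.46). They were called higher in ovary without testis replicate 1 (adjusted p = 0.0044).

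**Figure D2:**
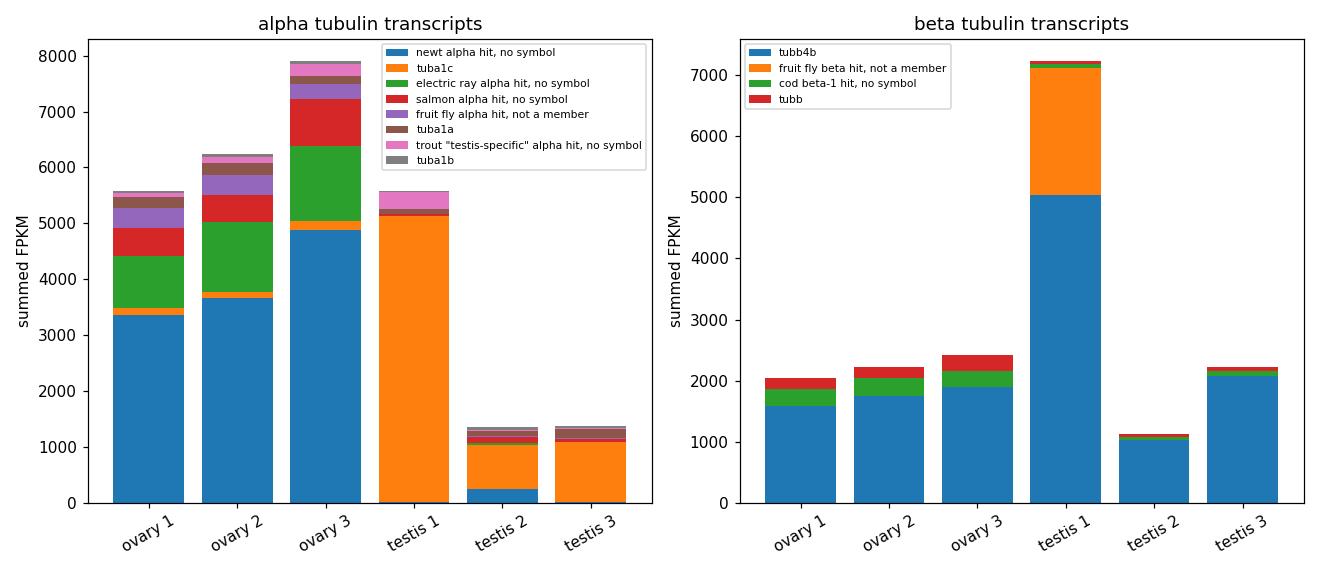
Summed FPKM of alpha tubulin (left) and beta tubulin (right) transcripts in each library, stacked by symbol or, for transcripts that are not members, by the species of the best SwissProt hit. The newt-matched transcripts fill 58.8% to 61.8% of alpha tubulin in the ovaries and tuba1c 59.3% to 92.0% in the testes; the fruit fly beta hit is a single transcript seen in testis replicate 1 alone.

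The beta tubulin symbols were tubb and tubb4b. The tubb level was 192, 190 and 257 FPKM in the ovaries and 43.0, 42.7 and 58.8 FPKM in the testes, with no overlap, and it was called higher in ovary (log2 fold change -2.30, SE 0.30, adjusted p = 0.0020). The far more abundant tubb4b, a beta tubulin that in mammals is broadly expressed and also found in cilia, stood at 1587, 1739 and 1894 FPKM in the ovaries and 5043, 1019 and 2066 FPKM in the testes. The testes lay on both sides of the ovaries, and tubb4b was not called (0.37, SE 0.59, adjusted p = 0.63; -0.36 without testis replicate 1). A fruit fly beta-1 hit, 1 transcript that is no member, stood at 2073 FPKM in testis replicate 1 and at 0 in the other 5 libraries.

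The tubb4b sum hid opposite groups of transcripts, which appeared when they were divided by their best hit in the non-redundant protein set, a division chosen after the values were seen. Groups by protein hit, here and below, were tested in a separate edgeR fit over 17414 units. The 4 transcripts with a zebrafish beta tubulin (named tubulin, beta, 2) as best hit stood at 1552, 1703 and 1866 FPKM in the ovaries and 145, 268 and 485 FPKM in the testes (log2 fold change -2.78, SE 0.65, adjusted p = 0.018). The 5 transcripts matched to salmon beta-4B tubulin stood at 30.4, 33.3 and 26.0 FPKM in the ovaries and 4599, 750 and 1580 FPKM in the testes (5.88, SE 0.81, adjusted p = 0.0041). The first group made up 98.1% of the symbol's FPKM in ovary and 11% in testis, the second 1.72% and 85.2%. The call of the first group was lost without ovary replicate 1, ovary replicate 3 or testis replicate 2 (adjusted p = 0.0505, 0.0502 and 0.0598), and that of the second was kept in each leave-out. Near-identical tubulin transcripts may share reads, and the sources used here do not say how the counting divided such reads.

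**Figure D3:**
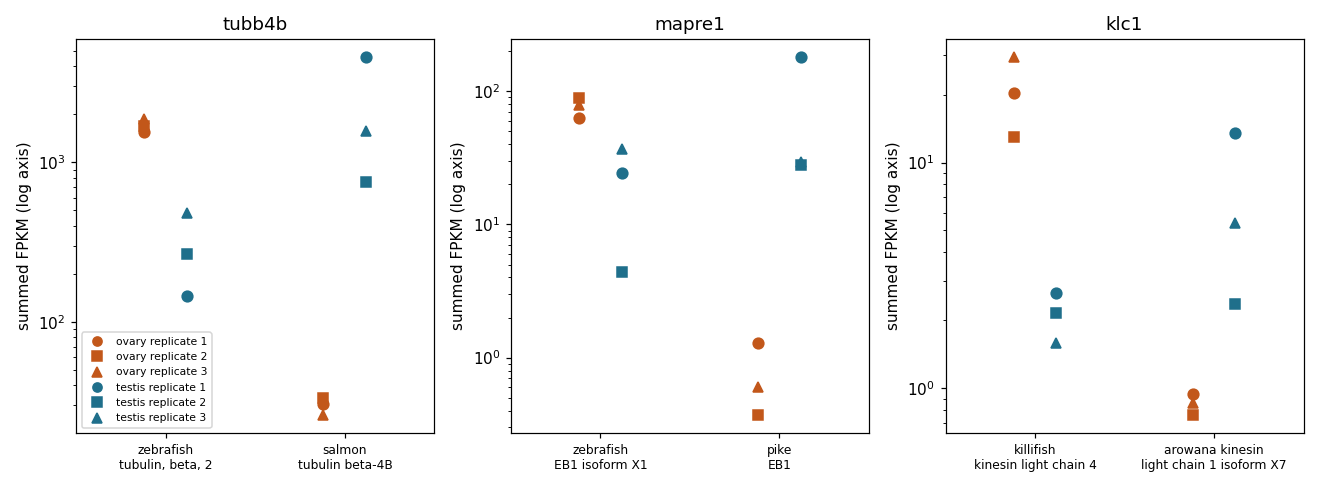
Summed FPKM (log axis) of groups of transcripts of tubb4b, mapre1 and klc1, divided by best protein hit, with 1 point per library. In tubb4b the zebrafish-matched group is higher in all 3 ovaries and the salmon-matched group, at 26.0 to 33.3 FPKM in the ovaries, in all 3 testes.

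Division by protein hit gave 126 groups for the 64 symbols, of which 119 were tested and 43 called, 26 higher in testis and 17 higher in ovary, against 36.7%, 19.7% and 17% of all units divided in this way. In 4 of the 30 symbols with at least 2 tested groups, called groups pointed both ways: tubb4b, klc1, kif3b and tubgcp3. The klc1 transcripts code for a kinesin light chain, which links the motor to cargo. Those matched to killifish kinesin light chain 4 averaged 20.9 FPKM in ovary and 2.13 FPKM in testis (-3.63, adjusted p = 0.0035), those matched to arowana light chain 1 isoform X7 0.853 and 7.11 FPKM (2.13, adjusted p = 0.047, lost in each leave-out, at 0.085 to 0.12, but that of testis replicate 2). For kif3b, a subunit of the kinesin-2 that carries cargo to the tip of cilia, the pike-matched group was higher in ovary (-1.32, adjusted p = 0.019) and the croaker-matched one higher in testis (3.30, adjusted p = 0.027). The first call was lost without ovary replicate 1 or 2 or testis replicate 2 or 3 (adjusted p = 0.058 to 0.086), the second without ovary replicate 1 or 3 or testis replicate 1 (0.056 to 0.082). For tubgcp3, a ring complex subunit, a group with an unnamed arowana hit was higher in ovary (-3.52, adjusted p = 0.010) and a kiwi-matched transcript higher in testis (7.68, adjusted p = 0.011). In mapre1, which encodes the end-binding protein EB1, the pike-matched transcripts averaged 0.75 ± 0.473 FPKM in ovary and 79.7 ± 88.1 FPKM in testis (6.29, adjusted p = 0.0055), although the symbol as a whole was not called. In total 9 symbols that were not called as a sum held a called group. The shares of all symbols in the table with such groups, or with groups called both ways, are not given here. These counts therefore cannot be read as a trait of the members.

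Of the 23 kinesin heavy chains, 4 were called higher in ovary, kif20a, kif23, kif14 and kifc3, and kif25 was called higher in testis. Among all tested units 21.1% were called higher in ovary and 24.8% higher in testis. In the ovaries kif20a, a kinesin of cytokinesis, was the most abundant, at 418, 437 and 416 FPKM, against 88.4, 40.3 and 29.5 FPKM in the testes. The 3 ovaries were close to each other and all above the testes (log2 fold change -3.21, SE 0.51, adjusted p = 0.0036). Of its 18 transcripts, 11 shared an arowana KIF20A hit and held most of its ovarian level, at 411 ± 10.6 FPKM in ovary and 16.6 ± 12.4 FPKM in testis. They held 97.0% of the symbol's mean FPKM in ovary and 31.5% in testis. The testis share was low through replicate 1, where these transcripts held 4.44 of the symbol's 88.4 FPKM. In replicates 2 and 3 they held 29.25 of 40.3 FPKM and 16.16 of 29.5 FPKM. Another 6 shared a second arowana KIF20A hit, held 2.88% and 46.0%, and were not called (log2 fold change 0.21, adjusted p = 0.77). They stood at 49.7, 10.1 and 12.9 FPKM in the testes. A trout-matched transcript, at 0.447 FPKM in ovary and 34.3, 0.94 and 0.43 FPKM in the testes, was not called either (4.22, adjusted p = 0.13). The fall thus lay in the first group.

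A second kinesin of the central spindle, kif23, stood at 154, 168 and 188 FPKM in the ovaries and at 91.1, 18.5 and 13.5 FPKM in the testes (-2.28, SE 0.72, adjusted p = 0.037). Testis replicate 1 came nearest to the ovaries. The call was lost without ovary replicate 1, 2 or 3 or testis replicate 2 or 3 (adjusted p = 0.062 to 0.081) and kept without testis replicate 1 (0.0010). The cytokinesis kinesin kif14 showed the same order, at 19.7, 23.1 and 20.5 FPKM against 18.0, 5.86 and 4.42 FPKM, and its call (-1.46, SE 0.50, adjusted p = 0.049) was lost in 9 of the 16 alternatives, among them the same 5 leave-outs (adjusted p = 0.073 to 0.11). The minus-end-directed kinesin kifc3 was called in all 17 settings, at 24.7, 29.9 and 29.7 FPKM in the ovaries and 6.66, 7.65 and 6.39 FPKM in the testes (-2.29, SE 0.25, adjusted p = 0.0013). Going the other way, kif25 rose from 2.84, 4.02 and 2.04 FPKM in ovary to 12.3, 13.1 and 16.1 FPKM in testis (1.98, SE 0.36, adjusted p = 0.0054).

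The other 18 kinesin heavy chains were not called when all libraries were used. Among them kif11, the plus-end motor that separates spindle poles, stood at 70.0, 50.6 and 84.8 FPKM in the ovaries and at 126, 19.2 and 16 FPKM in the testes. The chromokinesin kif22 stood at 83.4, 83.4 and 85.9 FPKM against 112, 30.8 and 30.1 FPKM. The microtubule-depolymerizing kif2c stood at 82.1, 94.2 and 137 FPKM against 140, 38.8 and 42.6 FPKM. In each of these 3, testis replicate 1 was above or near the highest ovary and the other testes were below every ovary. The kif20b values showed the same split most plainly, with 47.4, 47.6 and 47.3 FPKM in the ovaries and 72.4, 10.9 and 10.7 FPKM in the testes.

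**Figure D4:**
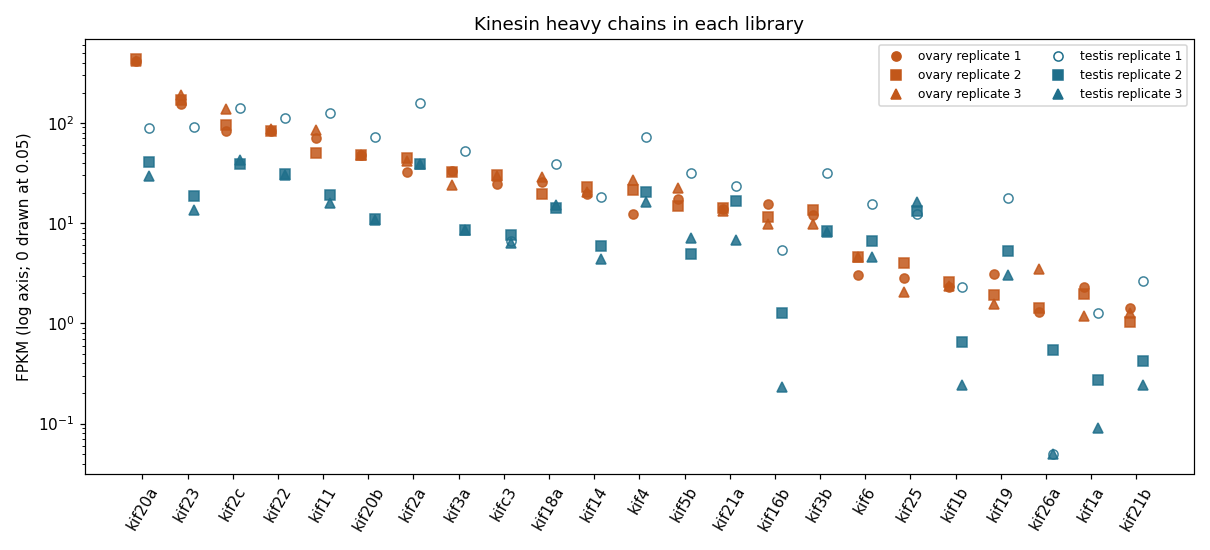
FPKM (log axis) of the 23 kinesin heavy chains in each library, ordered by mean ovary level; open circles mark testis replicate 1 and a value of 0 is drawn at 0.05. Testis replicate 1 lies above both other testes in 20 of the 23 genes.

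Testis replicate 1 was above both other testes in 48 of the 64 members, compared with 45.3% of all tested units, and over 2 times both in 32, compared with 18.3%. In kinesin heavy chains these numbers were 20 and 19 of 23, and the median ratio of testis replicate 1 to the mean of the other testes was 4.01, where it was 1.05 over all tested units. Without testis replicate 1, 38 members were called, 12 higher in testis and 26 higher in ovary, where 49%, 25% and 24% of all tested units were called. All 19 earlier calls were kept and 19 were added, 18 of them higher in ovary and 12 of them kinesin heavy chains. Of the 23 kinesin heavy chains, 16 were then called higher in ovary and 1 higher in testis, and their median log2 fold change went from -0.73 to -2.02. Among 9 kinesins of the spindle and cytokinesis, grouped after their values were seen, 3 were called higher in ovary with all libraries and 8 without testis replicate 1. Among all tested units these shares were 21.1% and 24%. The grouping left out the kinesin cenpe, whose symbol is outside the member rule. It averaged 5.60 FPKM in ovary and 46.9 FPKM in testis and was not called (2.34, adjusted p = 0.061). Without testis replicate 1 its log2 fold change was 0.71 (adjusted p = 0.17). Also left out were kif2a (0.62, not called) and 3 symbol-less transcripts matched to a clawed frog carboxy-terminal kinesin. With SwissProt entries grouped these transcripts were not called (0.52, adjusted p = 0.53). Leaving out another library gave 15, 13 and 17 member calls (ovary replicates 1, 2 and 3) and 17 and 20 (testis replicates 2 and 3), where 31.8%, 30.9%, 34.3%, 35.3% and 36.4% of all tested units were called.

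Markers of dividing cells were examined beside these kinesins. The 12 listed genes summed to 5388, 5623 and 8513 FPKM in the ovaries and to 1529, 519 and 462 FPKM in the testes, largely through ccnb1, cdc20 and ccnb2. With all libraries 6 were called higher in ovary, top2a was called higher in testis and 5 were not called, against 21.1% and 24.8% of all tested units. The 5 not called were mki67, bub1, bub1b, plk1 and ndc80, with mki67 at 37.8 ± 1.34 FPKM in ovary and 44.1 ± 54.1 FPKM in testis. Without testis replicate 1, 11 were called higher in ovary and 1 higher in testis, against 24% and 25%, and that library was above both other testes in 11 of the 12. The 5 smooth muscle markers were also highest in testis replicate 1, at 836 FPKM against 50.8 and 157 FPKM in replicates 2 and 3 and 7.11 to 10.0 FPKM in the ovaries. Markers of spermatids and flagella summed to 704, 263 and 232 FPKM in the testes and were above both others in replicate 1 for 8 of 8 genes. The part of the cell make-up of testis replicate 1 in the kinesin values was not tested.

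The kinesin light chains klc1 and klc2 were not called. In klc2 testis replicate 1 stood at 66.7 FPKM, the other testes at 5.85 and 5.83 FPKM and the ovaries at 15.6, 26.9 and 18.0 FPKM, and it was called higher in ovary without that library (-2.06, adjusted p = 0.0061).

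Cytoplasmic dynein is the minus-end-directed motor. Of its 6 members 3 were called higher in testis and none higher in ovary with all libraries. Among all tested units 24.8% were called higher in testis and 21.1% higher in ovary. The heavy chain of dynein 2, dync2h1, which returns cargo along cilia and flagella, stood at 1.02, 2.10 and 1.06 FPKM in the ovaries and at 35.6, 25.9 and 20.0 FPKM in the testes. Every testis was far above every ovary (log2 fold change 4.03, SE 0.39, adjusted p = 0.0010). Its light intermediate chain dync2li1 stood at 2.76, 3.81 and 6.74 FPKM against 37.7, 16.6 and 21.6 FPKM (2.22, SE 0.53, adjusted p = 0.014, lost without ovary replicate 2 at 0.054).

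The dynein 1 heavy chain dync1h1 rose from 16.2, 21.8 and 17.1 FPKM to 54.0, 62.3 and 48.0 FPKM (1.29, SE 0.26, adjusted p = 0.0074). The other dynein 1 subunits among the members were not called. Dynein light chains have symbols outside the member rule and are given below. The intermediate chain dync1i2 was 21.9 ± 1.18 FPKM in ovary and 40.9 ± 8.70 FPKM in testis (0.63, adjusted p = 0.066), and the light intermediate chain dync1li2 44.0 ± 2.72 and 24.1 ± 11.2 FPKM (-0.97, adjusted p = 0.053). Without testis replicate 1, dync1li2 was called higher in ovary (-1.35, adjusted p = 0.0073). The 6 dynactin subunits, which form the complex that joins dynein to cargo, had log2 fold changes above 0 and a median of 0.52. None was called, where 45.9% of all tested units were. Without testis replicate 1, dctn6 was called higher in testis (1.44, adjusted p = 0.018). Without ovary replicate 2 or testis replicate 3 dctn3 was below 0, as was dctn4 without ovary replicate 3. Their summed level was 127 ± 10.1 FPKM in ovary and 218 ± 9.94 FPKM in testis.

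Of gamma tubulin and its ring complex, 1 of 6 members was called, where 45.9% of all tested units were. The subunit tubgcp6 stood at 4.12, 5.99 and 5.69 FPKM in the ovaries and 20.4, 21.6 and 10.0 FPKM in the testes (1.45, SE 0.36, adjusted p = 0.016), a call lost without ovary replicate 1, ovary replicate 2 or testis replicate 2 (adjusted p = 0.070, 0.053 and 0.060). Gamma tubulin itself, tubg1, was 69.1 ± 12.7 FPKM in ovary and 45.8 ± 40.1 FPKM in testis and not called (-1.0, adjusted p = 0.16), but higher in ovary without testis replicate 1 (-1.75, adjusted p = 0.0089). The ring subunit tubgcp5 was likewise called higher in ovary only without that library (-1.17, adjusted p = 0.034). Among the end-binding proteins, mapre2 stood at 4.18, 3.40 and 2.30 FPKM in the ovaries and 22.7, 16.6 and 21.1 FPKM in the testes, with no overlap (2.36, SE 0.39, adjusted p = 0.0039), and mapre1 and mapre3 were not called. Without testis replicate 1, mapre1 was called higher in ovary (-1.49, adjusted p = 0.013, against -0.37 with it).

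Katanins sever microtubules. The catalytic subunit katna1 stood at 56.7, 56.1 and 56.1 FPKM in the ovaries and 30.3, 35.9 and 21.4 FPKM in the testes (-1.21, SE 0.28, adjusted p = 0.012). The katanin regulator katnbl1 fell from 165, 183 and 165 FPKM to 21.0, 41.7 and 35.3 FPKM (-2.64, SE 0.35, adjusted p = 0.0020). Not called were katnal1 (-0.81, adjusted p = 0.22) and katnal2 (2.19, adjusted p = 0.065). The katnal2 level was 2.5, 0.92 and 1.01 FPKM in the ovaries and 16.7, 5.72 and 2.8 FPKM in the testes, with no overlap. Its log2 fold change was 1.31 without testis replicate 1 (adjusted p = 0.18).

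Of the 7 tubulin ligase-like enzymes, 2 were called higher in testis and 1 higher in ovary. Among all tested units 24.8% were called higher in testis and 21.1% higher in ovary. Higher in testis were ttll6 and ttll9, glutamylases of cilia and flagella in mouse. The ttll6 level was 1.30, 1.42 and 0.67 FPKM in the ovaries and 11.7, 16 and 8.65 FPKM in the testes (3.14, SE 0.47, adjusted p = 0.0030). The ttll9 level was 0.60, 2.07 and 1.04 FPKM against 24.4, 10.5 and 6.69 FPKM (3.21, SE 0.75, adjusted p = 0.013). Every testis was above every ovary in both. Higher in ovary was ttll1, the catalytic subunit of a polyglutamylase, at 13.1, 30.3 and 21.5 FPKM against 7.65, 4.62 and 5.40 FPKM (-2.25, SE 0.39, adjusted p = 0.0047). Its partner in that enzyme in mouse, tpgs1, was also called higher in ovary, at 31.3, 42.7 and 29.6 FPKM against 9.58, 19.2 and 18.5 FPKM (-1.48, adjusted p = 0.021), a call lost without ovary replicate 1, 2 or 3 (adjusted p = 0.0503, 0.081 and 0.053). A further gene named for this polyglutamylase, tpgs2, was not called, at 15.6 ± 0.849 FPKM in ovary and 12.7 ± 6.55 FPKM in testis (-0.61, adjusted p = 0.29). The other 4 tubulin ligase-like enzymes, among them the glycylase ttll3, were not called. Without testis replicate 1, ttll4 was called higher in ovary (-1.18, adjusted p = 0.020).

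**Figure D5:**
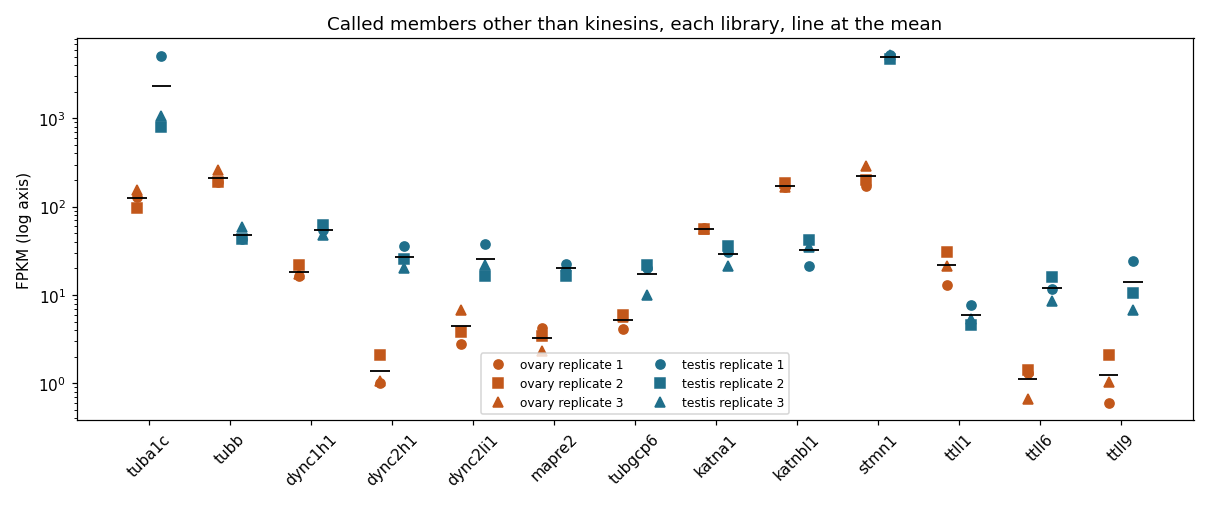
FPKM (log axis) in each library of called members other than kinesins, with a line at each tissue mean. Ovary and testis values do not overlap for any gene shown, and stmn1 lies between 4689 and 5180 FPKM in the testes.

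Other genes of microtubule biology, taken from lists drawn up by function, were read against the same 24.8% and 21.1%. Of 13 measured structural and end-binding microtubule proteins, 7 were called higher in testis and none higher in ovary (median log2 fold change 1.47; 5 and 1 called and a median of 0.94 without testis replicate 1), among them ckap5, a polymerase that adds tubulin at growing ends, at 8.05 ± 0.531 FPKM in ovary and 44.2 ± 18.4 FPKM in testis. Of these 7, ckap5 alone stayed called in each leave-out. The map9 call was lost in each (adjusted p = 0.063 to 0.16), and those of map7d2, clip1, clip2, clasp1 and tacc1 in at least 1. The clasp1 values also overlapped between the tissues. Among 10 measured partners of the gamma tubulin ring, testis was higher for 3 and ovary for 4. The subunits of augmin, a complex that branches spindle microtubules, fell on both sides: haus6 stood at 126, 147 and 195 FPKM in ovary and 45, 14.7 and 12.1 FPKM in testis (-3.05, adjusted p = 0.0049), whereas haus4 and haus5 were higher in testis (1.51 and 1.67). The haus4 call was lost without ovary replicate 1 or 2 (adjusted p = 0.057 and 0.05003), and that of haus5 in each leave-out (0.051 to 0.090) but that of ovary replicate 3. Without testis replicate 1, testis was higher for 2 of these partners and ovary for 6.

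Among 13 spindle proteins, testis was higher for 3 and ovary for 2, and testis replicate 1 was above both other testes in all 13, with a summed level of 1463 FPKM against 347 and 387 FPKM. Without it, testis was higher for 3 and ovary for 4, and their median log2 fold change went from 0.72 to -0.48. The partners of the chromosomal passenger complex, which kif20a brings to the central spindle, did not move together: birc5 was 107 ± 14.0 FPKM in ovary and 31.4 ± 26.7 FPKM in testis (-2.20, adjusted p = 0.020), while the kinase aurkb rose from 12.7 ± 1.02 FPKM to 78.6 ± 58.4 FPKM (2.33, adjusted p = 0.0097). Without testis replicate 1 the testis means were 16.3 FPKM for birc5 and 45 FPKM for aurkb, and both stayed called (-3.04, adjusted p = 0.0023, and 1.61, adjusted p = 0.0060). The birc5 call was lost without ovary replicate 2 (adjusted p = 0.059) or testis replicate 3 (0.051). The 13 tubulin folding genes gave 2 calls, both towards testis, and 1 towards each tissue without testis replicate 1. The 12 other tubulin-modifying genes gave 3 calls towards testis and 1 towards ovary. Of 14 dynein light chains and adaptors 2 went each way. The dynein light chain dynlrb2 fell from 240, 337 and 513 FPKM in ovary to 5.62, 15.3 and 22.2 FPKM in testis (-4.48, SE 0.63, adjusted p = 0.0024). The more abundant light chain dynll2 was 1206 ± 202 FPKM in ovary and 529 ± 232 FPKM in testis (-1.37, SE 0.34, adjusted p = 0.016). The dynll2 call was lost without ovary replicate 1 or 2 (adjusted p = 0.052 and 0.054).

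At the level of transcripts, 255 of the 297 were tested and 25 called, 15 higher in testis and 10 higher in ovary, against 10.7%, 6.26% and 4.4% of all tested transcripts. The called transcripts lay in 12 symbols. Without any 1 of ovary replicate 1, 2 or 3 or testis replicate 2 or 3, edgeR called 0 of all transcripts in the table, members included, with 55 to 70 member transcripts at an unadjusted p under 0.05. The long-read source of a transcript ran with its level: of 168 ovary-derived transcripts with a value, 117 had the higher mean FPKM in ovary, and of 123 testis-derived ones, 104 had it in testis. The same shares over all transcripts in the table are not given here, so these counts cannot be read as a trait of the members.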

How the data were processed

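One deposited table gives read counts and FPKM for 35011 full-length transcripts in 6 libraries. The read counts are estimated counts, since 26.5% to 31.6% of a library's deposited values were whole, and they were rounded after summing per symbol. The FPKM were scaled by the authors for transcript length and library size, per the file headers. Deposited transcript lengths are another column. The submitters' processing notes name featureCounts 1.5.0-p3, HISAT2 2.0.5, fastp and CASAVA 1.8 without their part; quantifier and genome build: not given in the sources used here. Symbols are those of vertebrate SwissProt hits.

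edgeR 4.0.16 (TMM, filterByExpr, robust quasi-likelihood) in R 4.3.3 was fitted to all units, with tissue as the only term. Alternatives used DESeq2 1.42.0, limma 3.58.1 (voom, or log2 of FPKM + 1 or FPKM + 0.1), other scaling, no filter, a replicate block and leave-outs. Files were handled with Python 3.11.15. The scripts were tested on simulated data. Members, lists and role groups were chosen with earlier results of these data known. Within each class the rule named the largest called rises and falls, the most abundant member of each tissue and up to 2 abundant members not called. Library totals of 11913969 to 18508307 limit precision at low counts. P-values measure variation between fish. One member is counted in the totals and is not reported here by name or drawn in the figures.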

Additional observations from a re-analysis of the deposited data

How the results depend on the processing

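The members called numbered 18 to 24 under other scaling, filters and tools and when symbols were grouped by SwissProt entry, an alternative chosen after seeing the data, against 19. With SwissProt entries grouped 47.7% of all tested units were called, against 45.9%. The shares under other scaling, filters and tools and with the replicate block are not given here, so those member counts cannot be read against them. Leaving out single libraries gave 13 to 38, with 7 to 13 higher in testis and 6 to 26 higher in ovary. Of all tested units 30.9% to 49% were then called, 15.9% to 25% higher in testis and 15% to 24% higher in ovary. The highest member total was without testis replicate 1 and the lowest without ovary replicate 2. Same-numbered fish did not deviate together (correlations -0.031 to 0.0059) and come from different fish, so the numbers do not pair them. With the replicate block, 18 members were called, and 0 of all transcripts (58 member transcripts at an unadjusted p under 0.05). Member transcripts called numbered 14 without the count filter and 73 with DESeq2, against 25, where 1570 and 10477 of all transcripts were called, against 3276. In the leave-outs they numbered 0 to 11, where 0 to 1439 of all transcripts were called. Of the named members' alternatives, 569 kept direction and side of the threshold, 19 passed it, 23 no longer did and 13 changed sign. The sign changes were all in members not called. Over the leave-outs tubb4b ran from -0.36 to 0.64, kif2a from -0.27 to 0.83 and ttll3 from -0.15 to 1.31, each lowest without testis replicate 1. Likewise dctn3 ran from -0.058 to 0.41, mapre3 from -0.19 to 0.12 and klc2 from -2.06 to 0.29. With RLE scaling and DESeq2, mapre3 was -0.0085 and -0.011, and with upper quartile scaling klc2 was 0.072. Their cause was not tested. Upper quartile scaling moved the median log2 fold change of all tested units from 0.11 to 0.30, and the FPKM tests to 0.25 and 0.29; without testis replicate 1 it was -0.08. Low counts limit kif26a, kif1a and kif21b.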
